A study of Mus musculus with 12 samples.

Results

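The enzymes that supply NADPH, together with the remaining steps of the pentose phosphate pathway, were followed in renal tubular epithelial cells (TECs) and in blood neutrophils (PMN) of mice after renal ischemia-reperfusion injury (IRI). The rule that fixes the set uses gene symbols, not measured values, and names 9 genes: G6pdx, Pgls, Pgd, Rpia, Tkt, Taldo1, Me1, Idh1 and Idh2. Of these, 8 were read by symbol from both tables, which list 50433 genes in TECs and 50434 in PMN, and G6pdx was not analysed here.

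The pentose phosphate pathway branches off glycolysis at glucose 6-phosphate. Its oxidative branch reduces NADP to NADPH while it shortens the sugar to a pentose, and its non-oxidative branch exchanges carbon units between sugar phosphates, so that pentoses can be made into nucleotides or returned to glycolysis. Cytosolic malic enzyme and the NADP-linked isocitrate dehydrogenases form NADPH outside this pathway. NADPH serves glutathione and thioredoxin reduction and lipid synthesis in tubular cells and fuels the oxidative burst in neutrophils.

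All mice were wildtype (C57BL/6J males according to the methods of the study) and all underwent renal IRI by clamping of the renal pedicles. They received either glutamine, given as the alanyl-glutamine dipeptide, or physiologic saline as vehicle, and cells were taken 24 hours after the injury. TECs were sorted from kidney as CD45-negative, Prominin-1-positive cells and PMN were isolated from blood, with 3 libraries per cell type and treatment. No library from sham-operated mice was used, so that every comparison is glutamine against vehicle after IRI. TEC vehicle libraries carry the replicate numbers 3, 4 and 5 in their labels and TEC glutamine libraries 1, 2 and 3, while PMN replicate numbers are names only. The labels do not say whether each library came from its own animal, and p-values therefore measure the spread between these libraries.

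TEC libraries held 5397370 to 10223461 counts and PMN libraries 20225246 to 21878446. Values are given as CPM, the counts of a gene relative to all counts of its library, after scaling by the trimmed mean of M-values (TMM), and fold changes are log2 of glutamine over vehicle from edgeR's quasi-likelihood test. PMN libraries were far more dispersed than TEC libraries, with an estimated biological coefficient of variation of 1.4 against 0.367. In TECs the sort marker Prom1 stood at 64.6 to 76.5 CPM with vehicle and 75.0 to 83.5 CPM with glutamine, and Ptprc, which encodes CD45, at 0.102 to 1.52 CPM and 1.81 to 2.74 CPM. The 10 neutrophil markers summed to 30710 to 52890 CPM in vehicle PMN and to 22080 to 73040 CPM in glutamine PMN. Markers of other cells were present in PMN as well: the 9 macrophage and dendritic cell markers, of which Lyz2 is also expressed by neutrophils, summed to 7782 to 14410 and 8244 to 15730 CPM. The proximal tubule markers summed to 308 to 444 and 238 to 377 CPM, and the red cell and platelet markers to 546.2 to 1088 and 499.6 to 910 CPM. Most of the first sum was Kap (215 to 402 and 187 to 306 CPM) and most of the second Pf4 (493 to 1022 and 401 to 587 CPM). Over all PMN libraries Slc34a1 ran from 3.61 to 44.0 CPM, Lrp2 from 0 to 10.2 CPM and Hba-a2 from 0 to 52.05 CPM. The endothelial and stromal markers summed to 2.71 to 1443 CPM with vehicle and 4.38 to 58.9 CPM with glutamine, and the thick limb and distal markers to 7.42 to 1220 and 5.14 to 37.9 CPM. The endothelial maximum lay in vehicle replicate 2 (Kdr 619, Emcn 347 and Cdh5 224 CPM) and the distal maximum in vehicle replicate 1 (Umod 1025 CPM).

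The regions just upstream of the start sites are shown for the 3 genes with the smallest p-values in TECs, which carry the main contrast among the members. Each sequence is the 250 bases before the RefSeq start site on GRCm38.p6, written 5′ to 3′ on the gene's strand, and all 8 genes matched an entry of the RefSeq promoter table by symbol. Capitals mark a GC box (GGGCGG) or a CCAAT box (CCAAT) on either strand. The windows lie at chr4:149166706-149166955 for Pgd, chr1:65186480-65186729 for Idh1 and chr7:80115351-80115600 for Idh2, all on the minus strand.
Pgd: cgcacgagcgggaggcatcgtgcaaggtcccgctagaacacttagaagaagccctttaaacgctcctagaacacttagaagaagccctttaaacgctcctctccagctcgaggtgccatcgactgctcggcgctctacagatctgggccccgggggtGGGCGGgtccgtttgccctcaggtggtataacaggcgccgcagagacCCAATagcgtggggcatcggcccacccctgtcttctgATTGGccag
Idh1: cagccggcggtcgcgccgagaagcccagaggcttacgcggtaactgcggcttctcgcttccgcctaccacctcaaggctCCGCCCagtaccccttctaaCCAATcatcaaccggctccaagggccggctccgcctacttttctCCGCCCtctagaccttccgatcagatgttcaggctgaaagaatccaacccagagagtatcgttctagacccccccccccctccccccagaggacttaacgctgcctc
Idh2: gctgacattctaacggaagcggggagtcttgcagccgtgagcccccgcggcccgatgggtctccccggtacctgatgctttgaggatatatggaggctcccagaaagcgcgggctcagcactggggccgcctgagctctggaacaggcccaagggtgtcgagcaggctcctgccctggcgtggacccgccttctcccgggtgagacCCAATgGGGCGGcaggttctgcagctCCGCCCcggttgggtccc
A GC box was found in the first listed window of all 8 genes, against 32.7% of 32851 mouse promoters of the same length. A CCAAT box was found in 4 of them (Pgd, Taldo1, Idh1 and Idh2), against 33.8% of promoters. The core letters of the antioxidant response element (TGACNNNGC, either strand) occur in 10.2% of promoters and in none of these 8 windows, which says only that these letters are not in this stretch. The percentages count every listed promoter, alternative starts included, whereas only the first window of each member was counted, so the sets are not alike. The second listed windows of Pgd and Me1 held no GC box, and that of Idh1 held 1.

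In TECs the largest differences among the 8 genes were a lower level of Pgd, the second NADPH-forming enzyme of the oxidative branch, and an opposite pair formed by the cytosolic and mitochondrial isocitrate dehydrogenases, with Idh1 lower and Idh2 higher upon glutamine. No member passed an adjusted p of 0.05 in edgeR, where 0% of all 14734 tested genes did, and none passed in DESeq2, which called 1.11% of 17165 genes, or in limma. At an unadjusted p below 0.05, edgeR singled out 2 members as lower (Pgd and Idh1) against 5.51% of all genes, and 1 as higher (Idh2) against 7.23%. All 8 members passed the expression filter. Of these, 6 had a log2 fold change below 0, as did 49.4% of all genes, and their median was -0.11 against 0.01 over all genes. For Pgd and Taldo1 every glutamine library lay below every vehicle library, a pattern seen for 9.81% of all genes. No member was higher without overlap, against 9.01%, and genes without overlap in either direction made up 18.8%.

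**Figure D1:**
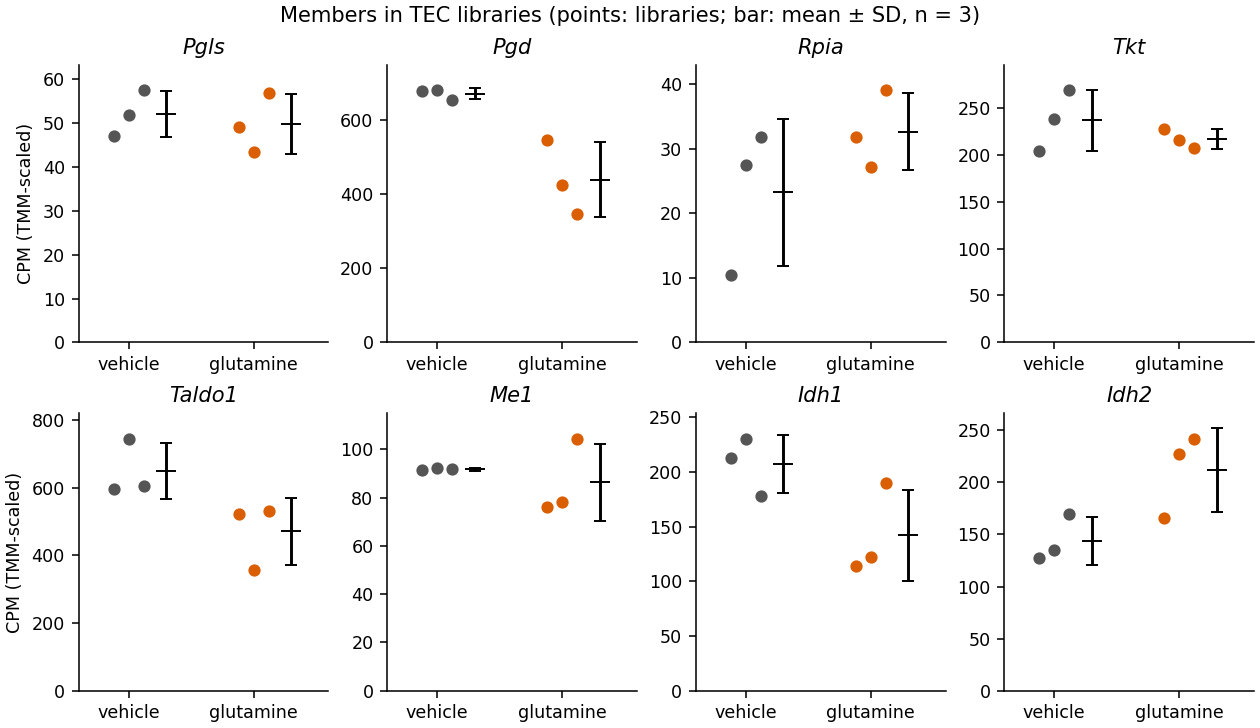
Each panel shows 1 gene in TECs, with CPM after TMM scaling on the vertical axis from 0, 1 point per library (vehicle grey, glutamine orange) and a bar with the mean ± SD of 3 libraries. The groups are apart for Pgd (655 to 681 against 347 to 547.4 CPM) and Taldo1 (597 to 746 against 357 to 533 CPM) and overlap in the other panels.

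The oxidative branch was represented by Pgls, which opens the lactone formed by the first enzyme, and by Pgd, which decarboxylates 6-phosphogluconate and yields NADPH. Pgd (chr4:149149991-149166771, minus strand, GRCm38) was measured at 679, 681 and 655 CPM with vehicle and at 547.4, 424 and 347 CPM with glutamine. The vehicle libraries were nearly equal, the glutamine libraries were spread more widely, and the highest of them stayed below the lowest vehicle library. The means were 672 ± 14.7 and 440 ± 101 CPM (SD, n = 3), a log2 fold change of -0.61 (SE 0.21, 95% interval -1.07 to -0.15, edgeR adjusted p = 0.277). Adjusted p-values for Pgd ran from 0.155 to 0.573 over the other settings tried. Salmon's estimate for Pgd lay within 0.02 of a whole count in 1 of 6 libraries, so that part of its reads was shared with other annotated sequences.

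Pgls (chr8:71592176-71601092, plus strand) stood at 47.1, 51.8 and 57.5 CPM with vehicle and at 49.1, 43.4 and 56.9 CPM with glutamine. These values overlapped throughout, and the log2 fold change was -0.06 with a 95% interval of -0.53 to 0.40 (edgeR adjusted p = 0.925). The interval leaves room for a moderate difference in either direction. The gene overlaps Fam129c on the same strand, which had at most 3 counts in any TEC library. H6pd, which carries out the first steps of the same oxidative route inside the endoplasmic reticulum, was at 295 to 346 CPM with vehicle and 253 to 306 CPM with glutamine (log2 fold change -0.16, SE 0.19, edgeR adjusted p = 0.745). The ratio of Pgd to H6pd inside each library, which does not depend on scaling, was 1.97 to 2.22 with vehicle and 1.14 to 1.79 with glutamine.

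In the non-oxidative branch, Taldo1 encodes transaldolase, which moves a carbon unit between sugar phosphates. Taldo1 (chr7:141392199-141402968, plus strand) was measured at 597, 746 and 606 CPM with vehicle and at 523, 357 and 533 CPM with glutamine. No library of one group reached into the other, although glutamine replicate 2, which is also the library with the fewest counts, lay well below the other two. That library also held the most red cell RNA among glutamine TECs, with Hba-a2 at 3773 CPM against 881 and 585 CPM, while vehicle libraries ranged from 462 to 2565 CPM, and the part of this in the value of Taldo1 was not tested. Means were 649 ± 83.7 and 471 ± 98.9 CPM, with a log2 fold change of -0.46 (SE 0.22, 95% interval -0.94 to 0.01, edgeR adjusted p = 0.402). Without glutamine replicate 2 the log2 fold change was -0.30, and it ran from -0.56 to -0.30 when each library was left out in turn.

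Tkt encodes transketolase, the thiamine-dependent partner of transaldolase. Tkt (chr14:30548359-30574720, plus strand) was at 204, 238 and 269 CPM with vehicle and at 227, 216 and 207 CPM with glutamine. All glutamine values fell inside the range of the vehicle values. The log2 fold change was -0.13 (SE 0.19, 95% interval -0.55 to 0.29, edgeR adjusted p = 0.808). Inside each library Taldo1 exceeded Tkt 2.26- to 3.13-fold with vehicle and 1.65- to 2.58-fold with glutamine in CPM, and these ranges overlapped.

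Rpia encodes the isomerase that makes ribose 5-phosphate. Rpia (chr6:70765720-70792232, minus strand) was at 10.4, 27.5 and 31.8 CPM with vehicle and at 31.8, 27.1 and 39.0 CPM with glutamine. Vehicle replicate 3 stood apart at the low end, and the other vehicle libraries lay among the glutamine libraries. The log2 fold change was 0.49 (SE 0.37, 95% interval -0.32 to 1.31, edgeR adjusted p = 0.602), and it ran from 0.14 to 0.79 when each library was left out in turn. Counts were fractional in every TEC library, and the share of reads assigned to Rpia is therefore uncertain.

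Among the enzymes outside the pathway, Me1 encodes cytosolic malic enzyme, which forms NADPH from malate. Me1 (chr9:86581371-86695953, minus strand) was at 91.3, 92.3 and 91.7 CPM with vehicle and at 76.0, 78.3 and 105 CPM with glutamine. The vehicle libraries agreed closely and the glutamine libraries lay on both sides of them. The log2 fold change was -0.09 (SE 0.20, 95% interval -0.54 to 0.36, edgeR adjusted p = 0.889).

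Idh1 encodes the isocitrate dehydrogenase of cytosol and peroxisomes. Idh1 (chr1:65158616-65186500, minus strand) was measured at 213, 231 and 178 CPM with vehicle and at 114, 122 and 190 CPM with glutamine. Glutamine replicate 3 reached into the vehicle range, and the other glutamine libraries lay below it. Means were 207 ± 26.8 and 142 ± 41.8 CPM (SD, n = 3). The log2 fold change was -0.55 (SE 0.24, 95% interval -1.07 to -0.02, edgeR adjusted p = 0.374).

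Idh2 encodes the mitochondrial counterpart, which uses the same substrate and the same cofactor. Idh2 (chr7:80094846-80115392, minus strand) was at 127, 135 and 170 CPM with vehicle and at 166, 227 and 242 CPM with glutamine. The groups overlapped only through vehicle replicate 5, which lay just above glutamine replicate 1. Means were 144 ± 22.8 and 212 ± 40.2 CPM, with a log2 fold change of 0.56 (SE 0.22, 95% interval 0.08 to 1.04, edgeR adjusted p = 0.333). The predicted gene Gm45203 overlaps Idh2 on the same strand and had 25 to 110 counts against 1130 to 2209 for Idh2.

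The opposite placement of these isoenzymes was clearest inside single libraries. The ratio of Idh2 to Idh1 counts was 0.596, 0.585 and 0.954 in vehicle libraries and 1.46, 1.86 and 1.28 in glutamine libraries. In counts, which are not corrected for gene length, Idh1 exceeded Idh2 in every vehicle library and Idh2 exceeded Idh1 in every glutamine library. Per kilobase of exon this did not hold for vehicle replicate 5, with Idh1 at 64.2 and Idh2 at 65.6 CPM per kilobase. Which gene leads thus depends on the length correction, while the shift of the ratio between groups does not. This ratio is free of scaling between libraries, but it was chosen after the values were seen and carries no test. The difference in its log2 was 1.13 and stayed between 0.98 and 1.36 when each library was left out in turn. With 3 libraries per group, the smallest 2-sided p that an exact permutation test can give is 0.1.

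**Figure D2:**
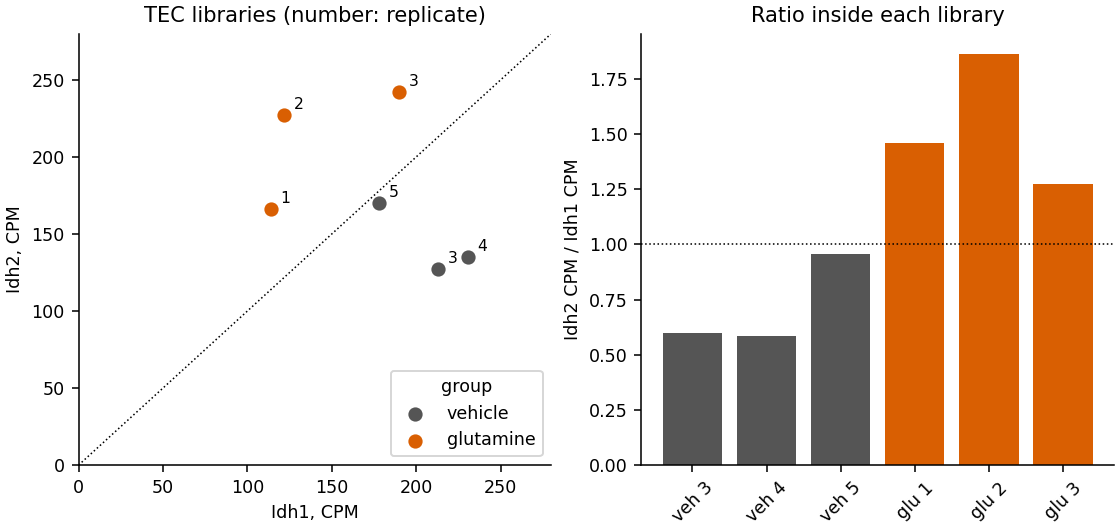
The left panel plots Idh2 against Idh1 in CPM for each TEC library (vehicle grey, glutamine orange, numbers are replicates) with a dotted line of equality, and the right panel gives the ratio of both in each library from 0. Vehicle libraries lie below the line at ratios of 0.585 to 0.954 and glutamine libraries above it at 1.28 to 1.86. Values are not corrected for gene length, so the line marks equal CPM only.

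The NAD-linked isocitrate dehydrogenase, which works in the citric acid cycle and forms NADH, was followed for comparison through 2 subunit genes. Idh3a had a log2 fold change of -0.41 and Idh3b of -0.61 (edgeR adjusted p = 0.536 and 0.429), and both genes overlapped between groups. The mitochondrial transhydrogenase Nnt, which makes NADPH from NADH and in which C57BL/6J mice are known to carry a deletion that leaves no functional enzyme, was at 27.6, 25.4 and 59.9 CPM with vehicle and at 24.6, 29.1 and 38.9 CPM with glutamine. Vehicle replicate 5 carried most of its difference, since the log2 fold change of -0.28 turned to 0.22 without that library.

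Per kilobase of exon, Taldo1 was the most abundant member in vehicle TECs at 299 ± 38.6 CPM per kilobase, followed by Pgd at 104 ± 2.28. Idh1 (64.2 to 83.2) and Idh2 (49.1 to 65.6) came next and overlapped, and Tkt (32.2), Me1 (23.8), Pgls (13.8) and Rpia (4.33 CPM per kilobase) followed. With glutamine Taldo1 remained first at 217 ± 45.5 CPM per kilobase. Behind it Idh2 (64.2 to 93.6), Pgd (53.8 to 84.9) and Idh1 (41.1 to 68.5) overlapped with their neighbours, so that their order was not resolved. The order of the last 4 genes was the same as with vehicle. Using the longest transcript in place of all exons put Pgd at 121 and Idh2 at 118 CPM per kilobase with glutamine, and Tkt ahead of Idh1.

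The 8 genes summed to 1968 to 2202 CPM in vehicle TECs and to 1495 to 1735 CPM in glutamine TECs, without overlap. Pgd and Taldo1, whose groups were apart by themselves, were the largest parts of this sum, and every other member overlapped between groups. The sum therefore does not describe the set as a whole. Pgd made up 32.4% ± 1.87 of that sum with vehicle and 26.7% ± 5.87 with glutamine. The share of Taldo1 was 31.2% ± 2.35 and 28.3% ± 3.89, and that of Idh2 6.94% ± 1.15 and 12.9% ± 2.97. In these sorted but bulk samples, fewer cells of a type and less RNA per cell cannot be told apart.

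Pathway neighbours were taken from lists and described by counts. Of 9 tested further genes of pentose phosphate and ribose metabolism, 9 had a log2 fold change below 0 (median -0.48), against 49.4% of all genes, and none an unadjusted p below 0.05. Rpe, the epimerase that feeds transketolase, had low values of 4.38 to 9.57 CPM with vehicle and 3.84 to 7.23 CPM with glutamine (log2 fold change -0.24, SE 0.46). Dera and Prpsap2, of deoxyribose phosphate breakdown and of the ribose diphosphate synthesis complex, were the 2 genes of this list whose groups did not overlap, at log2 fold changes of -0.48 and -0.69, a pattern of lower values seen for 9.81% of all genes. G6pd2 was listed at 0 counts in all TEC libraries.

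Among 11 tested genes that form NADPH by other routes or make NADP itself, 6 lay below 0 and 5 above (median -0.28), with 1 gene on each side at an unadjusted p below 0.05 (5.51% and 7.23% of all genes). Nadk, the cytosolic NAD kinase that produces NADP, stood at 30.4, 39.95 and 28.8 CPM with vehicle and at 18.1, 15.7 and 24.1 CPM with glutamine. The groups did not overlap, and the log2 fold change was -0.77 (SE 0.26, edgeR adjusted p = 0.275). Aldh1l1, the cytosolic folate enzyme that forms NADPH from formyl-tetrahydrofolate, stood on the other side at 67.5 to 81.8 CPM with vehicle and 102 to 115 CPM with glutamine (log2 fold change 0.51, SE 0.19, edgeR adjusted p = 0.319).

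Of 15 tested reductases that consume NADPH, 13 had a log2 fold change below 0 (median -0.58), against 49.4% of all genes, and 6 of them had an unadjusted p below 0.05, against 5.51% of all genes in this direction. These were Akr1b3, aldose reductase (-1.74), the carbonyl reductases Cbr1 (-1.45) and Cbr3 (-0.74), Gsr, glutathione reductase (-1.08), the quinone reductase Nqo1 (-0.77) and Blvra, biliverdin reductase (-0.58). In edgeR their adjusted p-values were 0.155 to 0.366. DESeq2 gave adjusted p-values of 0.00191 for Akr1b3, 0.00161 for Cbr1 and 0.00294 for Gsr, where 1.11% of all tested genes passed. In edgeR without an expression filter these 3 genes also passed, as did 1.46% of 29116 genes. Gsr was at 469, 693 and 493 CPM with vehicle and at 330, 208 and 242 CPM with glutamine. Whether the lists differ from each other was not tested.

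**Figure D3:**
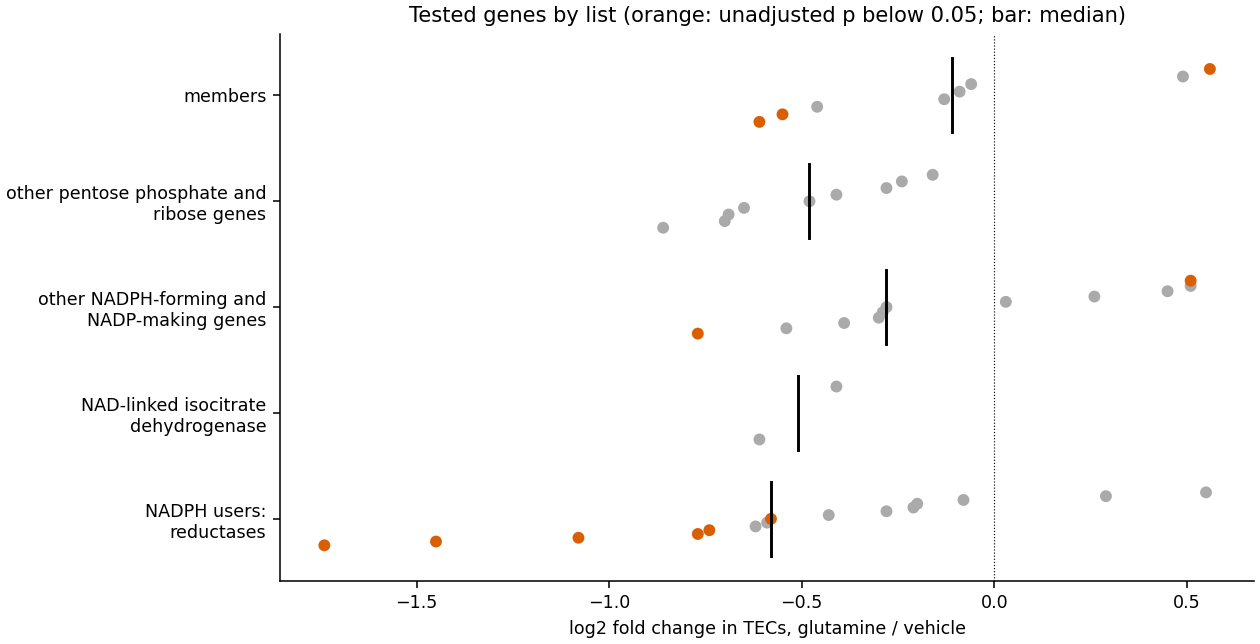
Log2 fold changes in TECs (glutamine over vehicle, horizontal axis) are shown for each tested gene by list, with orange points for an unadjusted edgeR p below 0.05, grey points for the other genes and a black bar at the median of the list; the vertical position inside a list is only the order of the values. The median is -0.11 for the 8 members, -0.48 for other pentose phosphate and ribose genes and -0.58 for reductases.

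The phagocyte oxidase, which uses NADPH for the burst, was represented in TECs by 3 tested genes, all above 0. Markers of other cells were read beside the members. The 10 neutrophil markers summed to 102 to 245 CPM with vehicle and 119 to 256 CPM with glutamine, and the 9 macrophage and dendritic cell markers to 42.0 to 82.2 and 61.4 to 137 CPM, and none of either list was at 0 in all libraries. Of the neutrophil sums, Cxcr2 alone gave 59.65 to 88.0 CPM with vehicle and 37.8 to 85.2 CPM with glutamine, with fractional counts in every TEC library. S100a8 ran from 6.83 to 106.7 CPM over the TEC libraries, while Ly6g reached at most 1.81 CPM. Of 12 proximal tubule markers, 10 were above 0 (median 0.34) with sums of 12870 to 14940 and 10250 to 18370 CPM, and all 6 tested thick limb and distal markers were above 0 (median 0.54). At an unadjusted edgeR p below 0.05, 3 markers of each of these lists were higher, against 7.23% of all genes, and 2 of each were higher without overlap, against 9.01%. The log2 fold changes of Slc5a2, a glucose transporter of the early proximal tubule (2.06), and of Slc12a1, the cotransporter of the thick limb (1.30), were larger than that of any member. Slc5a2 was low, at 1.16 to 2.04 CPM with vehicle and at 2.52, 14.1 and 5.04 CPM with glutamine. Its value thus leans on glutamine replicate 2, and its counts were fractional in every TEC library. Predicted genes took 16.1% to 21.7% of counts in vehicle libraries and 24.9% to 29.4% in glutamine libraries. The part of these values in the results for Pgd, Taldo1, Idh1 and Idh2 was not tested.

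In PMN no difference between glutamine and vehicle was resolved for any member. Of 8 genes, 7 passed the expression filter, 3 with a log2 fold change below 0 and 4 above, against 50% below 0 among 10130 tested genes, and their median was 0.03 against 0.00 over all genes. No member passed an adjusted p of 0.05 in edgeR, where 0% of all genes did, in DESeq2, which called 2.73% of 11123 genes, or in limma, and 0 members had an unadjusted edgeR p below 0.05, against 3.42% of all genes (1.37% lower and 2.04% higher). The intervals were wide, and at this spread the fit made no call in simulated data either, so that the absence of calls says little about the members. Among genes with a mean of at least 10 CPM, the median gene differed 34.5-fold between its highest and lowest PMN library, against 1.91-fold in TECs.

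**Figure D4:**
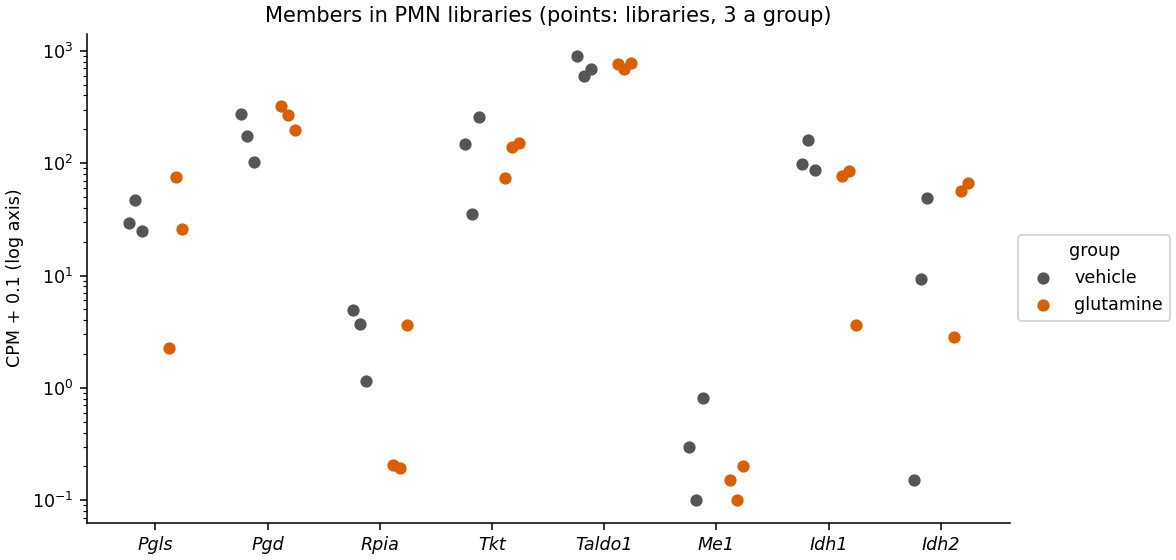
Each point is 1 PMN library (vehicle grey, glutamine orange), with CPM plus 0.1 on a log axis so that values of 0 can be drawn. Taldo1 lies at 598 to 903 CPM in all 6 libraries, whereas Idh2 runs from 0.0501 to 65.9 CPM and Me1 is at or near 0.

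Taldo1 was the dominant and steadiest member. It was at 903, 598 and 687 CPM with vehicle and at 762, 684 and 784 CPM with glutamine, with no separation of the groups. The log2 fold change was 0.03 (SE 0.25, 95% interval -0.56 to 0.62, edgeR adjusted p = 1.0). Its highest library exceeded its lowest 1.51-fold, and only 0.977% of the 7163 genes with a mean of at least 10 CPM had a smaller spread. It made up 58.9% ± 2.69 of the summed CPM of the members with vehicle and 59.2% ± 6.13 with glutamine, and its level per kilobase was 336 ± 72.4 and 342 ± 24.2 CPM.

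Pgd was the member next in steadiness, at 275, 176 and 103 CPM with vehicle and 320, 270 and 196 CPM with glutamine. The groups overlapped, and the log2 fold change was 0.50 (SE 0.46, 95% interval -0.59 to 1.6, edgeR adjusted p = 1.0). It ran from 0.21 to 0.89 when each library was left out in turn. In TECs the estimate for the same gene was -0.61; the difference between the cell types was not tested. Pgls ranged from 24.9 to 47.0 CPM with vehicle and from 2.16 to 75.4 CPM with glutamine, and the log2 fold change of 0.03 had an SE of 1.35.

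Tkt was at 149, 35.3 and 259 CPM with vehicle and at 74.1, 138 and 150.0 CPM with glutamine, so that the vehicle libraries enclosed the glutamine libraries (log2 fold change -0.29, SE 0.75). Rpia was near the detection limit, at 1.05 to 4.86 CPM with vehicle and 0.0943 to 3.51 CPM with glutamine, or 2.01 to 97.1 counts (log2 fold change -1.35, SE 1.58, from -4.91 to -0.83 when each library was left out in turn). Me1 had 0 to 15.0 counts per library and was not tested. At these levels a difference in Rpia or Me1 was not detectable.

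Idh1 was the only member whose PMN groups did not overlap, a pattern seen for 4.63% of all genes in the direction of lower values. It was at 97.8, 160.0 and 86.2 CPM with vehicle and at 76.0, 84.3 and 3.56 CPM with glutamine. The highest glutamine library lay just below the lowest vehicle library, and glutamine replicate 3, with 71.0 counts, lay far below all others. The log2 fold change was -1.07 (SE 1.07, 95% interval -3.60 to 1.46, edgeR adjusted p = 1.0) and ran from -1.55 to -0.52 when each library was left out in turn. The highest value lay in vehicle replicate 2, the library with the endothelial markers, and without it the log2 fold change was -0.76. Leaving out the highest vehicle library cannot bring the groups together, so the separation is not checked by it. The interval thus holds 0 although the groups did not overlap.

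Idh2 in PMN was at 0.0501, 9.26 and 49.1 CPM with vehicle and at 2.74, 57.0 and 65.9 CPM with glutamine. Low and high libraries occurred in both groups, between 1 and 1313 counts, and the log2 fold change of 1.11 had an SE of 2.03 (edgeR adjusted p = 1.0) and ran from 0.48 to 3.16 when each library was left out in turn. The ratio of Idh2 to Idh1 ran from 0.000512 to 0.569 in vehicle PMN and from 0.0360 to 18.5 in glutamine PMN, with overlap, so that the separation of this ratio in TECs was not seen in PMN.

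**Figure D5:**
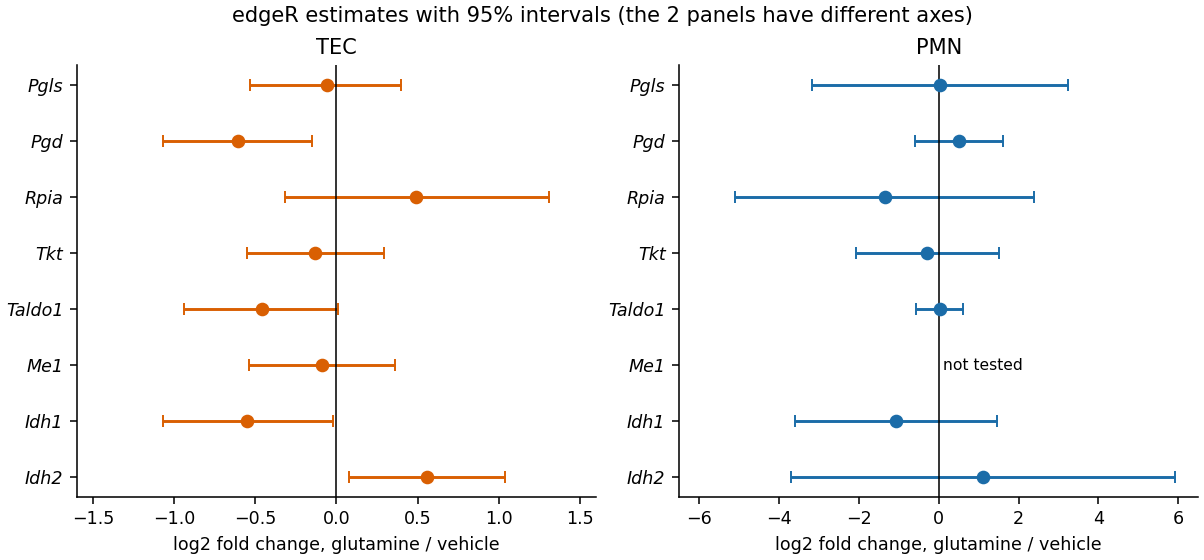
Points are edgeR log2 fold changes of glutamine over vehicle and bars their 95% intervals for each member, in TECs (left) and PMN (right, on a wider axis). In TECs the intervals of Pgd, Idh1 and Idh2 leave out 0 before adjustment for the number of genes, and in PMN every interval holds 0.

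The phagocyte oxidase genes were abundant in PMN, with summed levels of 2918 to 3566 CPM with vehicle and 2714 to 3895 CPM with glutamine. Rac2, the small GTPase of the oxidase, was at 333 to 436 CPM with vehicle and 541 to 932 CPM with glutamine (log2 fold change 0.81, SE 0.31, edgeR adjusted p = 1.0). Ptprc, a general leukocyte gene, was likewise at 317 to 569 and 754 to 1150 CPM (log2 fold change 0.91), and its part in the value of Rac2 was not tested. Gsr was at 554 to 882 CPM with vehicle and 347 to 950 CPM with glutamine (log2 fold change -0.10, SE 0.42), and Nadk at 188 to 351 and 84.3 to 339 CPM (-0.38, SE 0.56). The value for Nadk ran from -0.95 to -0.04 when each library was left out in turn.

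Some neighbours were at or near 0 in one PMN group. A library at 0 was common in PMN, seen for 29.8% of genes with a mean of at least 10 CPM. Rbks, ribokinase, was at 0 counts in all vehicle libraries and at 53.6, 4.71 and 7.68 CPM with glutamine, at least 154-fold higher against a floor of 3 counts per library, and at least 43.2-fold without glutamine replicate 1. Cbr3 was at 31.4, 39.1 and 5.33 CPM with vehicle and at 0 with glutamine, at least 169-fold lower, and at least 123-fold without vehicle replicate 2. In edgeR the adjusted p-values were 0.818 and 0.738, while DESeq2 gave 7.68e-05 and 1.79e-06. Both genes passed the expression filter only through the group in which they were high, so that these p-values come from genes that had to differ and support no difference. H6pd was at 0.301, 57.3 and 8.85 CPM with vehicle and had 0, 0 and 0.5 counts with glutamine, and it did not pass the filter. The highest values of Cbr3 and H6pd lay in vehicle replicate 2, the library with the endothelial markers, whose part in these values was not tested. Among all tested PMN genes, 5.87% were higher and 4.63% lower without overlap of the groups.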

How the data were processed

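RNA of sorted cells was sequenced by the authors and quantified per gene; the submitters' processing notes name Trim Galore 0.6.4, Salmon 1.0.0, DESeq2 and mm10. The authors deposited estimated counts, not normalized, which were rounded to whole counts here. The deposited PMN table had been altered by a spreadsheet: surplus points stood in 3.20% of cells and 0.39% were dates. Decimals were taken from the final point of a cell and dates were decoded by day, month and year, so that these other values served as estimated counts. Its 2 columns per library were averaged (correlation 0.995 to 0.996 within and 0.773 to 0.826 between libraries). Each cell type was fitted over all genes with edgeR 4.0.16 (R 4.3.3; quasi-likelihood test, TMM, default filter, Benjamini-Hochberg adjustment, threshold 0.05). DESeq2 1.42.0, limma 3.58.1, other normalizations and filters, and fits without each library were alternatives, and the edgeR test was checked on simulated data, in which it recovered most but not all changed genes at the spread of TECs and called none at the spread of PMN. The check used larger fold changes than those of the members and says nothing about changes of their size. Positions and exon lengths came from GENCODE M21. Members, gene lists and alternatives were chosen with earlier results of these data known. All members were named, as were Nnt, Nadk, H6pd, Rpe and Gsr and, of each list, up to 6 genes with an unadjusted p below 0.05, except an item that is not reported here; Dera, Prpsap2, Idh3a, Idh3b and G6pd2 were named after their values were seen.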

Additional observations from a re-analysis of the deposited data

How the results depend on the processing

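The number of members past the threshold was 0 in both cell types under every alternative run, with adjusted p-values for Pgd, Idh1 and Idh2 in TECs no lower than 0.155, 0.225 and 0.172. In TECs, 6 members had a log2 fold change below 0, and 5 without glutamine replicate 2 or vehicle replicate 5. In PMN, 3 members were below 0, against 5 with DESeq2 and 5 with RLE normalization, and 3 to 4 under the other settings (4 of the 5 members left under a minimum of 10 counts, 7 tested elsewhere), with 4 upon leaving out any library. With each library left out in turn, log2 fold changes in TECs were -0.17 to 0.02 for Pgls, -0.80 to -0.47 for Pgd, -0.82 to -0.41 for Idh1 and 0.45 to 0.70 for Idh2, -0.50 to 0.22 for Nnt and -0.47 to 0.13 for Rpe. In PMN they were -1.32 to 0.58 for Pgls, -0.76 to 0.38 for Tkt, -0.10 to 0.18 for Taldo1, -4.91 to -0.83 for Rpia, 0.48 to 3.16 for Idh2, -0.12 to 6.01 for Nnt and -0.56 to 0.18 for Gsr.

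Other settings also turned directions in PMN. Pgls, at 0.03, was at -0.05 with DESeq2, -0.03 with RLE normalization, -0.01 where each library had to hold 10 counts and -0.93 with limma. Taldo1, at 0.03, was at -0.04 with DESeq2, -0.03 with RLE normalization, -0.03 under that minimum and -0.01 without a filter. Tkt, at -0.29, was at 0.10 with limma. Limma also moved Idh1 from -1.07 to -1.96, Rpia from -1.35 to -2.81 and Idh2 from 1.11 to 2.80, without turning them. The cause was not tested. Over all TEC genes, 0 passed in edgeR, 190 in DESeq2 and 425 in edgeR without a filter. The median over all TEC genes was 0.17 with DESeq2 and 0.14 without a filter, against 0.01 in the main fit. Those fits ran on 50433 and 29116 genes, with low-count genes that the main fit of 14734 left out. Pgd was at -0.61 with DESeq2 and -0.64 without a filter, against -0.61. Idh2 was at 0.56 and 0.53, against 0.56. The upward shift of the median was thus not seen in these 2 members.

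No paired analysis was possible because 3 is the one replicate number common to both TEC groups, and PMN numbers merely name libraries. Depth was lowest in TEC glutamine replicate 2, and in PMN the spread between libraries limits most members, Taldo1 least, and low counts also Rpia and Me1.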
